A study of Danio rerio with 6 samples.

Results

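A set of 7 photoreceptor genes was followed in whole zebrafish larvae that had been irradiated as embryos. They were the targets with a RefSeq mRNA identifier whose zebrafish symbol is nrl or crx, or belongs to a family of photoreceptor opsins, transducins, phosphodiesterase 6 subunits, arrestins, opsin kinases, recoverins, guanylate cyclase activators, or the visual cycle proteins Rlbp1 and Rpe65. This gave 7 targets of 37157 on the array, and of 2663 that carry a zebrafish symbol. They were nrl (NM_001040331), grk1a (NM_001034181), saga (NM_200559), grk7b (NM_001033090), pde6hb (NM_200837), guca1g (NM_001011660) and guca1ab.1 (NM_200656), each the only target of its gene with an NM identifier. Whether targets without an NM identifier also read these genes was not checked. The same symbols cover 47 RefSeq genes, so 40 of them, among them crx and all opn1, gnat, gngt, arr3, rcvrn, rlbp1 and rpe65 genes, were not analysed here under a zebrafish symbol. No member of the visual cycle is thus among the 7, which stand for phototransduction and for the rod transcription factor. The study's own list of altered targets from these pools gives RPE65 and PDE6C as lower, at targets without an NM identifier. Those targets were not analysed here, so the 7 genes do not stand for these families as a whole.

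Larvae were of the wild-type AB strain. The control group was 3 pools of 50 larvae mock irradiated (0 Gy) at 26 hpf, and the treated group was 3 pools of 50 larvae given 5 Gy from a Co-60 source at that time. Every pool was collected at 120 hpf, when RNA of the whole body was hybridised to 1 one-colour NimbleGen array per pool. The comparison asked whether expression differed at 120 hpf at the highest dose without gross malformation.

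Photoreceptors are the light-sensing neurons of the retina, with rods for dim light and cones for colour. Light converts an opsin, which activates the G protein transducin, and this releases phosphodiesterase 6 from its inhibitory subunit. The enzyme then removes cyclic GMP, channels close, and the fall in calcium is sensed by guanylate cyclase activating proteins, which restore cyclic GMP. An opsin is shut off when an opsin kinase phosphorylates it and arrestin binds it. The cones of the zebrafish larva work before its rods do, and the pineal organ holds photoreceptors as well, so RNA of whole larvae mixes these sources.

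Values are log2 array signals of a target, each combined from its probes. A call of higher or lower needed an unadjusted limma p below 0.05 together with a change of at least 1.5-fold at 5 Gy, which are the cut-offs in the study's methods. Across all targets the array of control replicate 3 correlated best with that of 5 Gy replicate 3 (r = 0.987). It also correlated better with 5 Gy replicates 1 and 2 (r = 0.957 and 0.915) than with control replicates 1 and 2 (r = 0.897 and 0.905), so changes without this pool are given too. A change in the number of photoreceptors and a change in RNA per photoreceptor cannot be told apart in whole larvae. Signals of different targets depend on their probes and were not set against each other.

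None of the 7 genes was called higher or lower at 5 Gy (4.04% of all targets were called by limma, 1.15% as higher and 2.89% as lower). Their log2 ratios were above 0 for 6 and below 0 for pde6hb alone, with a median of 0.23, against -0.033 over all targets. That median moved with single pools, from 0.057 without control replicate 3 and 0.12 without 5 Gy replicate 2 to 0.35 without control replicate 2 or 5 Gy replicate 3, and it was -0.048 with array weights. The smallest adjusted p from limma was 0.905, shared by nrl and grk1a, whose ratios were the largest of the 7, and no target of the array reached an adjusted p of 0.05. By limma 1500 targets, or 4.04%, had an unadjusted p under 0.05, and all of them also passed the 1.5-fold cut-off. That share is below the 0.05 expected if no target differed. When the fit held replicate number as a block, nrl and grk1a were called higher (2 of 7, against 3.61% of all targets called higher and 8.81% called in either direction). The methods' test, paired or unpaired, called neither of them. Whether pools of the same number shared a clutch is not stated in the study's methods.

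**Figure D1:**
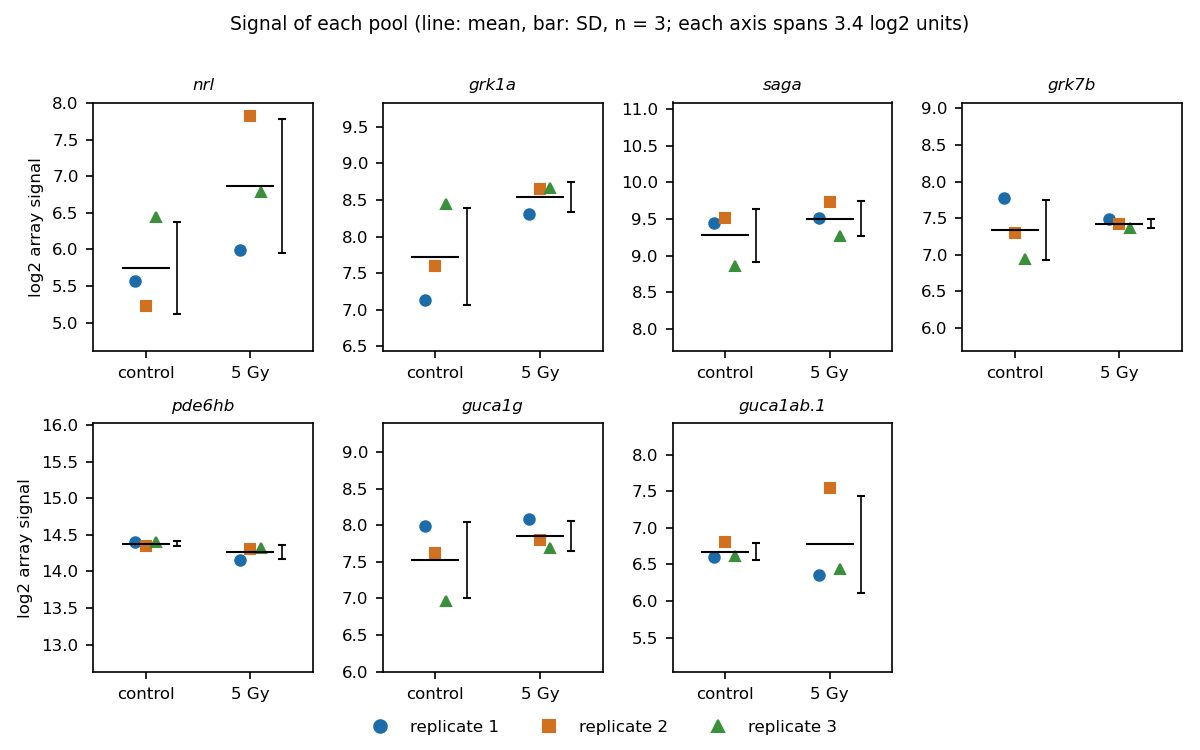
Log2 array signal (vertical axis) of each of the 7 genes in the 3 control and 3 irradiated pools, with colour and shape for the replicate number, a line at the group mean and a bar of 1 SD. The groups overlap for all genes but pde6hb, and the highest value of nrl, 7.82, and of guca1ab.1, 7.54, is that of 5 Gy replicate 2.

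The transcription factor gene nrl and the opsin kinase gene grk1a act in rods. Nrl directs photoreceptor precursors to the rod fate in mammals, and it is needed for rods in zebrafish larvae. The log2 signal of nrl was 5.57, 5.22 and 6.45 in control replicates 1, 2 and 3 and 5.99, 7.82 and 6.78 in 5 Gy replicates 1, 2 and 3. The groups overlapped, because 5 Gy replicate 1 lay below control replicate 3, and 5 Gy replicate 2 stood highest. Control pools averaged 5.75 ± 0.629 and irradiated pools 6.87 ± 0.916 (SD, n = 3 pools each). The log2 ratio was 1.12 (standard error 0.513, 95% interval -0.059 to 2.29, adjusted p = 0.905 from limma), or 2.17-fold with an interval of 0.960 to 4.91. Irradiated pools exceeded the control of the same number by 0.42, 2.60 and 0.34 in pairs 1, 2 and 3. The ratio was 0.64 without 5 Gy replicate 2 (95% interval -0.44 to 1.72), the smallest value when any 1 pool was left out, and 1.55 without 5 Gy replicate 1, the largest. It was 1.47 without control replicate 3 (95% interval 0.29 to 2.65), where the target passed both cut-offs at an adjusted p of 0.178 from limma. Its mean signal lay in the dimmest 25% of targets, which end at 6.97, and whether it lay above background is not given in the sources used here.

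Grk1a phosphorylates light-activated opsin and so starts its shut-off. Its log2 signal was 7.13, 7.59 and 8.44 in control replicates 1, 2 and 3, and 8.31, 8.64 and 8.67 in 5 Gy replicates 1, 2 and 3. The irradiated pools lay close together, and the overlap came from control replicate 3, which was above 5 Gy replicate 1. The means were 7.72 ± 0.665 and 8.54 ± 0.202 (SD, n = 3 pools each), a log2 ratio of 0.82 (standard error 0.375, 95% interval -0.045 to 1.68, adjusted p = 0.905 from limma). The pair differences were 1.17, 1.05 and 0.22, smallest in pair 3. Without control replicate 1 the ratio was 0.52 (95% interval -0.40 to 1.44), the smallest when any 1 pool was left out. In the block fit on replicate number the 95% interval was 0.088 to 1.54 (adjusted p = 0.567 from limma), and for nrl it was 0.088 to 2.15 (adjusted p = 0.567). Without control replicate 3 it was the largest, at 1.18 (95% interval 0.45 to 1.90, adjusted p = 0.102 from limma). In that comparison 19.2% of all targets were called, against 4.04% with all pools. Without both pools numbered 3, a setting chosen after seeing the data, grk1a and nrl had ratios of 1.11 and 1.51 and were called higher, against 5.72% of all targets.

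Saga is a rod arrestin, which binds phosphorylated opsin and ends its signal. The log2 signal of saga was 9.45, 9.52 and 8.86 in control replicates 1, 2 and 3 and 9.52, 9.74 and 9.26 at 5 Gy. Control replicate 3 was the lowest pool and 5 Gy replicate 3 the next, so both pools numbered 3 were low. The log2 ratio was 0.23 (standard error 0.304, 95% interval -0.47 to 0.93), which leaves room for a rise of 1.90-fold or a fall to 0.724 of the control. Each pair had a difference above 0, at 0.068, 0.22 and 0.40. When 1 pool was left out the ratio lay between 0.023 (without control replicate 3) and 0.35 (without 5 Gy replicate 3).

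**Figure D2:**
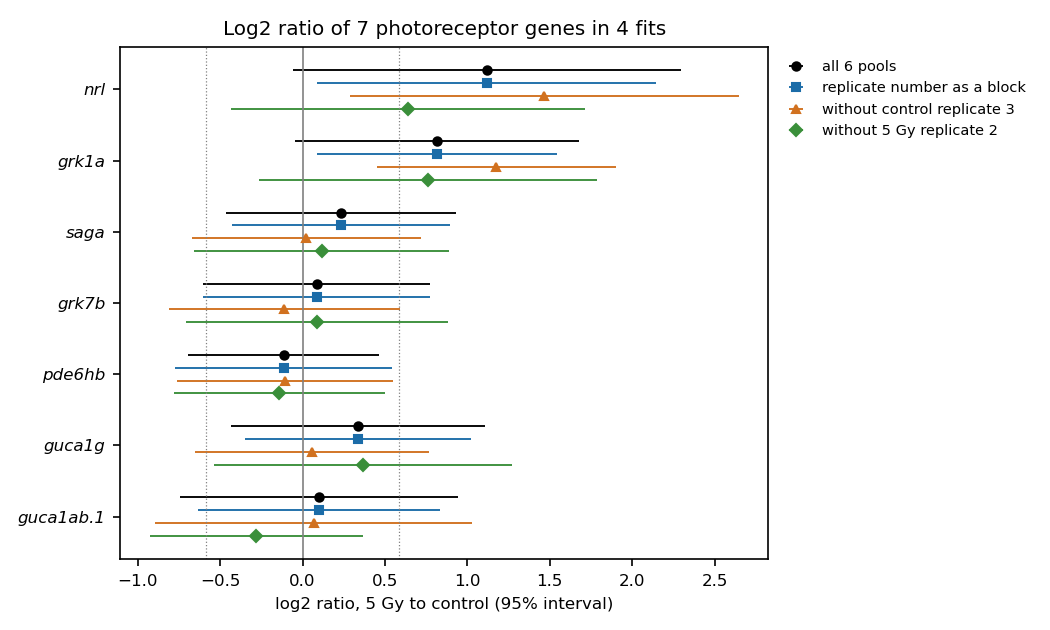
Log2 ratio of 5 Gy to control (horizontal axis, with 95% intervals) of the 7 genes from limma with all 6 pools, with the replicate number as a block, without control replicate 3 and without 5 Gy replicate 2. Dotted lines mark a change of 1.5-fold in both directions, and the intervals of nrl and grk1a leave out 0 in the block fit and without control replicate 3 only.

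Among genes of cone phototransduction, neither pde6hb nor grk7b was called, and their ratios depended on how the probes were combined. That held for other members too. With the median of probes the ratio was 0.037 for saga, 0.65 for grk1a and 0.42 for guca1g, while nrl stayed at 1.11. For guca1ab.1 the ratio was 0.26 with the mean of probes and 0.056 with their median. Pde6hb is an inhibitory subunit of phosphodiesterase 6, of the kind that cones carry in mammals. Its log2 signal was 14.40, 14.34 and 14.40 in control replicates 1, 2 and 3 and 14.15, 14.31 and 14.32 at 5 Gy. It was the only one of the 7 whose groups did not overlap, all irradiated pools being lower, against 4.7% of all targets with no overlap and lower values and 7.49% with no overlap in either direction. The gap was narrow, since control replicate 2 and 5 Gy replicate 3 differed by less than the SD within the 5 Gy group. The means were 14.38 ± 0.0325 and 14.26 ± 0.0961 (SD, n = 3 pools each; exact permutation p = 0.1, two-sided, and 3 against 3 cannot go below this). The log2 ratio was -0.12 (standard error 0.252, 95% interval -0.70 to 0.46), or 0.923 of the control with an interval of 0.618 to 1.38. With the mean of probes in place of median polish the sign turned, at 0.20, and with the median of probes the ratio was -0.35.

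Grk7b belongs to the kinase family that phosphorylates cone opsins. The log2 signal of grk7b was 7.77, 7.30 and 6.95 in control replicates 1, 2 and 3 and 7.49, 7.42 and 7.36 at 5 Gy. The irradiated pools lay inside the range of the controls, whose SD was 0.412 against 0.0622 at 5 Gy. The log2 ratio was 0.085 (standard error 0.300, 95% interval -0.61 to 0.77), with pair differences of -0.28, 0.12 and 0.41. It was -0.11 without control replicate 3 and 0.30 without control replicate 1. With the mean of probes in place of median polish the ratio of grk7b was 0.23. With the median of probes it was 0.54 (95% interval -0.28 to 1.37).

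The guanylate cyclase activators guca1g, also known as gcap7, and guca1ab.1, also known as gcap5, encode calcium sensors that speed the recovery of cyclic GMP after light. The log2 signal of guca1g was 7.98, 7.62 and 6.97 in control replicates 1, 2 and 3 and 8.09, 7.80 and 7.69 at 5 Gy. Control replicate 3 again was the lowest pool. The log2 ratio of guca1g was 0.34 (standard error 0.335), or 1.26-fold with a 95% interval of 0.741 to 2.15, and it was 0.057 without control replicate 3 and 0.57 without control replicate 1. The log2 signal of guca1ab.1 was 6.60, 6.81 and 6.61 in controls and 6.35, 7.54 and 6.43 at 5 Gy. One irradiated pool, replicate 2, lay above the controls and the other 2 lay below all of them. The log2 ratio of guca1ab.1 was 0.10 (standard error 0.368, 95% interval -0.75 to 0.95), and it was -0.28 without 5 Gy replicate 2 and 0.31 without 5 Gy replicate 1. Like nrl, this target lay in the dimmest 25%.

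Control replicate 3 was the lowest pool for saga, grk7b and guca1g, and the highest control for nrl, grk1a and, by a narrow margin, pde6hb. 5 Gy replicate 2 was the highest of all pools for nrl, saga and guca1ab.1. The 7 genes therefore did not share 1 order of pools. For a comparison with other genes, each member was centred on its own mean and the 7 were averaged, which placed 5 Gy replicate 2 at 0.47, the other irradiated pools at -0.0068 and 0.083, and the controls at -0.15, -0.22 and -0.18. Among 2656 other targets with a zebrafish symbol, the values of lhpp, crygm2b, zgc:152891, crygm2a and mef2ca were most like this average over the 6 arrays (Pearson r = 0.978, 0.976, 0.963, 0.963 and 0.943). Both crygm2b and crygm2a encode gamma-crystallins of the lens, and lhpp encodes a phosphatase. All 5 were highest in 5 Gy replicate 2, crygm2b at 11.38 against 7.47 to 9.13 in the other pools. The average itself peaks in that pool, so this peak follows from how the 5 genes were picked. The members were not scaled, and nrl, with the widest range of the 7, weighed most in the average. Among the 5 genes, lhpp (log2 ratio 0.91, standard error 0.345) and crygm2b (log2 ratio 1.82, standard error 0.635) were called higher by limma, each at an adjusted p of 0.905, and with the block crygm2a (log2 ratio 1.47) was called as well. Of all targets 1.15% were called higher by limma and 3.61% with the block. The average used to pick the 5 genes was itself higher at 5 Gy, so these calls are not separate support.

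Single probes of a target are meant to read the same RNA, and probes with close numbers may overlap, so they are not replicates of a pool. Whether each probe reads only that RNA was not tested. For nrl all 11 probes had a higher mean at 5 Gy, with probe ratios of 0.45 to 2.41. Only 1 of the 11 separated the groups, and 8 had a mean log2 signal below 6.97, the limit of the dimmest 25% of targets. The probes numbered 505 and 518 had the largest ratios. Probe 518 read 89.2, 33.5 and 1282 in control replicates 1, 2 and 3 and 373, 1469 and 1056 at 5 Gy. Control replicate 3 thus lay with the irradiated pools on this probe, and 5 Gy replicate 2 was the highest pool on 7 of the 11 probes. For example, probe 126 read 99.1, 28.6 and 49.6 in controls and 34.1, 464 and 89.9 at 5 Gy.

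For grk1a 11 of 12 probes had a higher mean at 5 Gy, with a median probe ratio of 0.85. The exception was the probe numbered 1839, at -0.43, which read 2356 in control replicate 1 and 68.9 to 300.4 in the other 5 pools. Saga had 9 of 12 probes higher. The 6 lowest-numbered saga probes, which read from 504 to 2508, had ratios between 0.28 and 0.44, while the 2 dimmest, at 26.3 to 149, were below 0. The lowest saga ratio, -0.56, was that of probe 1735, which was brighter and read 311 to 1445. Probe 1567 had the largest, 1.83. For guca1g 8 of 12 probes were higher, for grk7b 5 of 7 and for guca1ab.1 7 of 12, and the probes of guca1ab.1 spread from -0.81 to 1.90.

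The pde6hb target lay at percentile 99.2 of all targets by mean signal, and the highest probe intensity of each array was 62978 to 65248. Whether differences are compressed at such high signals was not tested. Its probes fell into 2 classes. Of the 12 probes, 9 read 4564 to 50304 and had a median ratio of -0.14, 8 of them below 0. The other 3, numbered 535, 552 and 569, read 28.6 to 519 and were all above 0, with ratios of 1.25, 1.41 and 1.36. Probe 552 read 33.9, 37.6 and 28.6 in controls and 33.3, 519 and 39.3 at 5 Gy, so that 1 pool, 5 Gy replicate 2, stood alone. Without these 3 probes, a choice made after their values were seen, the log2 ratio of pde6hb was -0.20 (standard error 0.252, 95% interval -0.78 to 0.38) and the groups still did not overlap.

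**Figure D3:**
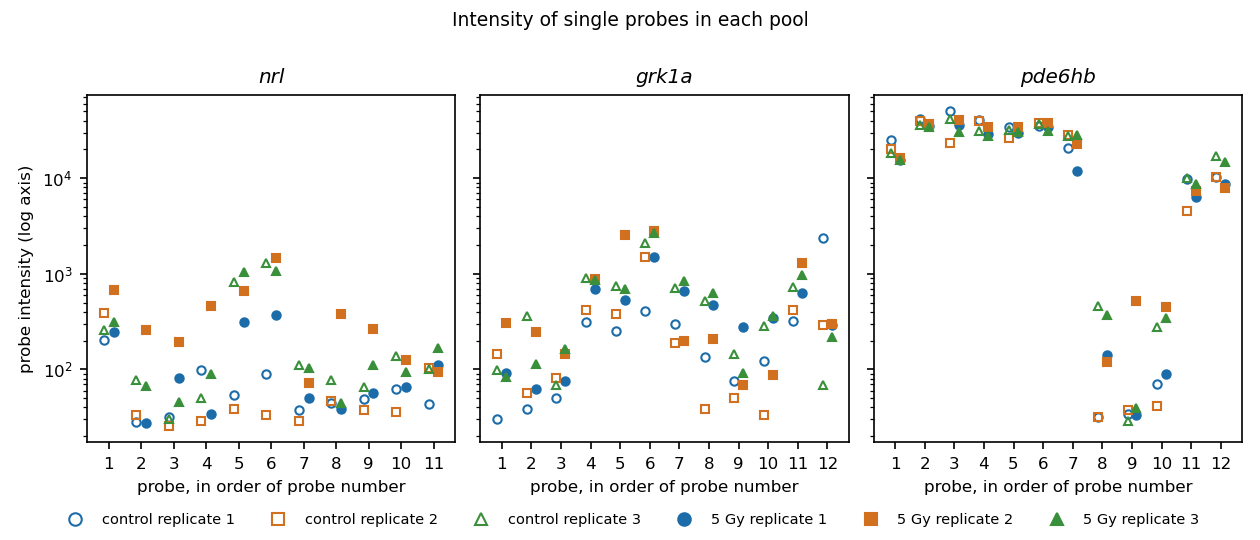
Intensity (log axis) of each probe of nrl, grk1a and pde6hb, in order of probe number, in control pools (open symbols) and 5 Gy pools (filled symbols), with colour and shape for the replicate number. In pde6hb 3 probes lie between 28.6 and 519 while the other 9 lie between 4564 and 50304, and 2 nrl probes are high in control replicate 3 and in the irradiated pools.

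**Figure D4:**
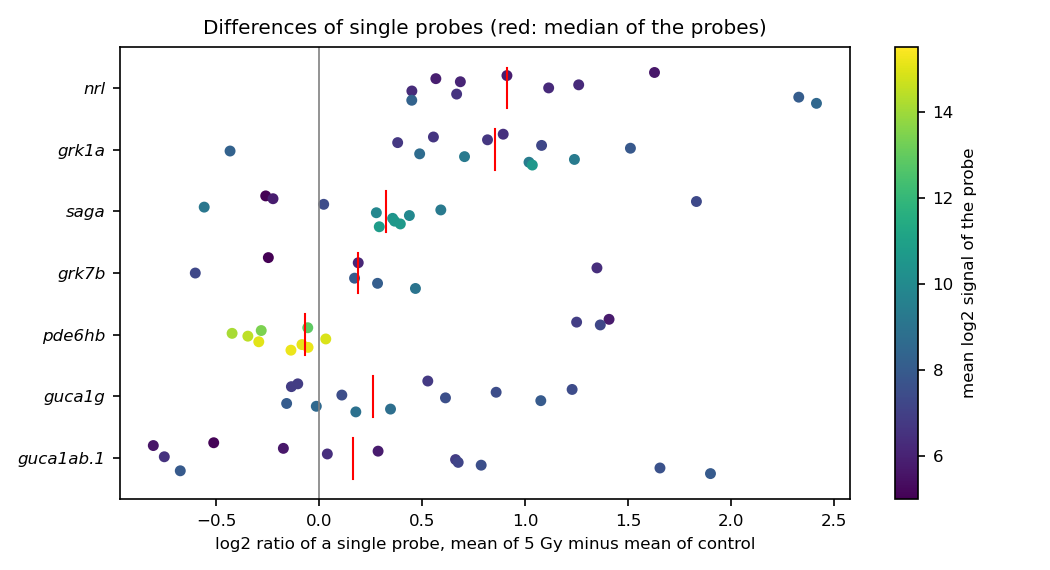
Log2 ratio of 5 Gy to control of each single probe (horizontal axis) of the 7 genes, coloured by the mean log2 signal of the probe, with a red line at the median. All 11 nrl probes and 11 of 12 grk1a probes lie above 0, and the 3 pde6hb probes above 1 are its dimmest.

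Among related eye genes, 2 of 20 measured targets were called, or 10%, against 4.04% of all targets. The calls among these 20 numbered 1 to 4 when 1 pool was left out. They were 4 without control replicate 3, against 19.2% of all targets called in that fit, and 4 without 5 Gy replicate 1, against 4.5%. With array weights 7 were called, or 35%, against 29.4% of all targets. The paired form of the methods' test called 0. Of 3 measured targets among 35 listed genes of phototransduction outside the 7, gnb5a was called lower, none was called higher, and the median ratio was 0.14. Gnb5a is a G protein beta subunit, of the kind that pairs with RGS9 to speed transducin shut-off in photoreceptors and that also acts in other neurons. Its log2 signal was 11.70, 11.65 and 10.48 in control replicates 1, 2 and 3 and 10.05, 10.14 and 10.07 at 5 Gy. The irradiated pools were all below the controls, as for 4.7% of all targets. The log2 ratio of gnb5a was -1.19 (standard error 0.375, adjusted p = 0.905 from limma), and it was not called without control replicate 1, without control replicate 2 or by the paired form of the methods' test. Sagb, the second rod arrestin of the zebrafish, had a ratio of 0.49 (standard error 0.312), the same sign as that of saga, and was not called.

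Of 6 measured targets among 44 listed genes of the visual cycle and retinoid transport, bco1l was called higher, none was called lower, and the median ratio was -0.33. Bco1l is a carotene oxygenase, and enzymes of that family make retinal from provitamin A. Its log2 signal was 9.41, 9.04 and 9.65 in controls and 10.68, 11.11 and 10.15 at 5 Gy. The groups did not overlap, and 2.78% of all targets had higher values with no overlap. The log2 ratio of bco1l was 1.27 (standard error 0.339, adjusted p = 0.905 from limma), and it was not called by the paired form of the methods' test. Both gnb5a and bco1l are in the study's own list of altered targets from these pools, so neither direction is independent evidence. The retinol binding protein gene rbp5 had a ratio of -0.60 (standard error 0.358) and was not called. The count of this list depended on single pools. Without control replicate 3 rbp5 was called lower too, in a fit where 11.4% of all targets were. Without 5 Gy replicate 1 the retinal G protein-coupled receptor gene rgra and the retinol dehydrogenase gene rdh8b were called lower, which gave 3 calls. In that fit 2.65% of all targets were called lower. With array weights rbp5, rgra and rdh8b were all called lower, against 16.7% of all targets, which gave 4 calls.

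None of 7 measured targets of outer segment and synapse genes was called (median 0.20). The 2 with the smallest p were the polarity gene crb2a, at -0.55 (standard error 0.313), and the retinoschisin gene rs1b, at 0.37 (standard error 0.282). Without control replicate 3 crb2a was called lower, in a fit where 11.4% of all targets were. None of 3 retinal transcription factor targets was called (median 0.044), with prdm1a at 0.49 (standard error 0.355) and rorb at -0.33 (standard error 0.416). With array weights both crb2a and rorb were called lower, against 16.7% of all targets. The single target of the pineal and non-visual opsin list, opn6a, had a ratio of 0.47 (standard error 0.312) and was not called. Its 3 irradiated pools lay above the controls, as for 2.78% of all targets, while 7.49% did not overlap in either direction. The gap was narrow, with 5 Gy replicate 3 at 9.37 and control replicate 3 at 9.29.

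Markers of other cells of the eye and body were measured in part. Of 23 lens targets 3 were called higher, or 13.0% against 1.15% of all targets, and none lower (median 0.19). The 3 were crygm2b, crygm2d4 and crygm2d17, related crystallin genes, each at an adjusted p of 0.905 from limma. The paper had already listed the targets of crygm2d4 and crygm2d17 as higher on the same arrays. Calling them again here adds no separate finding. Of 4 targets of pigment epithelium and melanophores 1, mitfb, was called higher, against 1.15% of all targets. Its log2 ratio was 1.22 (standard error 0.498, adjusted p = 0.905 from limma). The groups overlapped, with 5 Gy replicate 1 at 6.65 below control replicate 3 at 7.00. The highest pool was 5 Gy replicate 2, at 8.26. The mitfb target was dim, at percentile 22.6 of all targets by mean signal. Slc24a5, pmela and dct were not called, at log2 ratios of 0.44, 0.63 and 0.13. The summed signal of the lens list was 361092 to 382090 in controls and 382630 to 426005 at 5 Gy, and that of the pigment list was 4471 to 5643 and 5304 to 6907. None of 2 bipolar cell, 2 Muller glia and 3 amacrine and ganglion cell targets was called. The neuronal synuclein gene sncb, the only target of the neuron list, had a mean log2 signal of 13.88 in controls and 13.12 at 5 Gy (log2 ratio -0.76, standard error 0.338) and was not called, and its signal on the linear scale was 12183 to 18543 in controls and 6406 to 12452 at 5 Gy. As a check of the tissue, the mean log2 signal of acta1b of skeletal muscle was 15.17 in controls and 15.32 at 5 Gy. It was 15.82 and 15.66 for prss59.1 of the exocrine pancreas and 14.50 and 14.65 for hbae3 of erythrocytes. The irradiated pools of prss59.1 were all below the controls, as for 4.7% of all targets, while 7.49% did not overlap in either direction. Prss59.1 was not called (log2 ratio -0.16, standard error 0.254). The heart markers myl7, myh6 and tnni1b had log2 ratios of 0.27, -0.38 and -0.20, and cdx1b of the intestine had 0.36, none of them called. No target of the liver or skin lists carried a symbol. The part of lens, pigment cells, neurons or other tissues in the values of the 7 genes was not tested.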

How the data were processed

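RNA of 6 pools of 50 whole larvae was measured, 3 controls and 3 irradiated with 5 Gy, grouped by the sample labels. The authors scanned the arrays with a GenePix scanner, extracted signals with NimbleScan and quantile normalized them, and the deposited values are linear intensities of 385000 single probes per array. RMA is named in the submitters' processing notes, and no version, background correction or genome build is given in the sources used here. Median intensity lay between 355 and 357, and 0 columns were left out. The number of arrays limits the precision.

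Log2 intensities were combined per target by median polish (tolerance 0.01, at most 10 iterations) and the groups compared with limma 3.58.1 in R 4.3.3 (lmFit, eBayes, no covariate) over all 37157 targets, with Benjamini-Hochberg adjustment. Code was tested on simulated data. Of 3055 targets with an NM identifier, 2663 matched a current symbol in the RefSeq table of assembly GRCz12tu. No coordinates were used, and no probe or gene sequences were used here.

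The methods state that replicates came from separate clutches. After removal of the group means, pools of the same number correlated at 0.150, 0.239 and 0.497 over all targets, all above 0.1, while control replicate 1 and 5 Gy replicate 2 correlated at 0.166, above the own-number value of pair 1. Deviations within a group sum to 0, so these correlations depend on each other and cannot settle the pairing. Before that removal, control replicate 1 correlated at 0.977 with control replicate 2 and at 0.925 with 5 Gy replicate 1. The methods do not say whether pools of the same number share a clutch. The numbers were still taken as pairs and a block for replicate number was fitted. Other settings were another round of quantile normalization, centring on array medians, probe means or medians, leaving out the dimmest 25% of targets, an eBayes trend, array weights, the methods' t-test (also paired), and dropping each pool in turn. Leaving out both pools numbered 3, and 3 pde6hb probes, was added after seeing the data.

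Every member is named. Of each related list, up to 4 called targets or the 2 with the smallest p are named, together with the 5 targets most like the members' average. A further item of the naming rule is not reported here. The members, lists and this rule were chosen with earlier results of these data known.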

Additional observations from a re-analysis of the deposited data

How the results depend on the processing

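No member was called lower in any of the 16 settings fixed at the start. The count of members called higher, 0 with all pools, was 2 with the replicate number as a block, 2 with array weights and 1 with an eBayes trend. Of all targets 3.61%, 12.7% and 1.11% were called higher in these fits. The count was 0 to 2 when 1 pool was left out. It was 2 without control replicate 3 and 1 without 5 Gy replicate 1, against 7.81% and 1.85% of all targets called higher. It was 2 without both pools numbered 3, against 5.72%. These calls were of nrl and grk1a, and of nrl alone with the trend and without 5 Gy replicate 1. The methods' test called none, paired or not. The block changed no other call among the members or the related eye genes. Outside them, crygm2a was called with it. With array weights the adjusted p from limma was 0.0459 for grk1a and 0.0469 for nrl, in a fit that called 10913 of all targets, or 29.4%. The count over all targets, 1500, was 3272 with the block, 569 by the methods' t-test, 341 in its paired form, 5560 without both pools numbered 3, and 308 to 7126 when 1 pool was left out, with 308 without control replicate 1, 310 without control replicate 2, 895 without 5 Gy replicate 2 and 7126 without control replicate 3. Ratios that changed sign were those of pde6hb with the mean of probes (0.20), of grk7b (-0.048), saga (-0.078) and guca1ab.1 (-0.16) with array weights, of grk7b without both pools numbered 3 (-0.081), of grk7b when 1 pool was left out (-0.11, without control replicate 3, to 0.30), and of guca1ab.1 when 1 pool was left out (-0.28, without 5 Gy replicate 2, to 0.31). The cause was not tested. Leaving out the dimmest 25% of targets removed nrl and guca1ab.1, so that setting gives no value for them.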
